A study of Homo sapiens with 3 samples.

Results

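The genes described here encode the proteins of the cytosolic ribosome. They were chosen by name: a row of the FPKM table belonged to the set when its Ensembl identifier mapped to a protein-coding gene whose symbol was RPL or RPS followed by a number with an optional A or X, or was RPSA or one of the acidic stalk genes RPLP0 to RPLP2. The rule uses names and no measured value. The set held 77 genes, 46 of the large (60S) subunit and 31 of the small (40S) subunit, of 60504 rows in the table, 19664 of them protein-coding. Symbols with a final L, which mark paralogs, were left out, as was the fusion gene FAU.

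A ribosome joins a small subunit, which reads the messenger RNA, to a large subunit, which forms the peptide bond. Each subunit needs its proteins in matched amounts, and cells make these proteins from highly abundant, short mRNAs. Many of these mRNAs start with a C followed by a run of pyrimidines, the terminal oligopyrimidine (TOP) start, through which mTOR signalling sets their translation.

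RNA-Seq was performed on DLD1, an established human colorectal cancer cell line. The DLD1 control (wild type) was represented by 1 library and the BEX2-/- DLD1 cells by 2 libraries, labelled KO1 and KO2, in which CRISPR/Cas9 had removed a few bases at the translation start of BEX2. The question was which genes differed after loss of BEX2. Nothing states whether KO1 and KO2 are separate clones or separate cultures of 1 clone. No test between genotypes was run, because the control had no replicate and any spread would come from KO1 and KO2 alone. A difference between genotypes and a difference between single cultures or clones cannot be told apart.

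The library depth recovered from the values was 47458851 reads for the control, 35593989 for KO1 and 47722374 for KO2. BEX2 itself was listed at 0 FPKM in all 3 libraries, so its RNA gave no check of the genotype labels. Of the 7 colorectal epithelial markers examined, all passed a mean of 1 FPKM, with EPCAM between 220 and 282 FPKM, whereas VIL1 differed widely between KO1 and KO2 (13.2 and 0.221 FPKM, against 3.61 in the control). The summed markers of fibroblasts, leukocytes and endothelium stayed at or below 0.0875 FPKM in every library, with COL3A1, LUM, PTPRC and CDH5 at 0. The mitochondrial genome held 24.3%, 24.2% and 21.9% of the FPKM sum in the control, KO1 and KO2.

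The start sites show what the ribosomal protein genes have in common. RefSeq (GRCh38.p14) start sites were matched by symbol for 62 of the 77 genes, which had 77 annotated starts. Among these genes 46 had a start of C followed by at least 4 bases that were each C or T. The share was 59.7% of the 77 starts, against 4.07% of 35116 annotated starts of all genes. The sequences below run from 40 bases before the start to 15 bases from the start onward, written 5′ to 3′ on the coding strand, and capitals mark the C and pyrimidine run at the start. RPLP2, RPL12, RPS27A, RPL41 and RPSA are shown as examples of genes named below, and RPS15 because it had no such run at its annotated start. RPL23A and RPS2, also named below, had no matched start site.
RPLP2 (chr11:809927-809981, plus strand): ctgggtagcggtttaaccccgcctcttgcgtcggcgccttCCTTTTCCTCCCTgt
RPL12 (chr9:127451392-127451446, minus strand): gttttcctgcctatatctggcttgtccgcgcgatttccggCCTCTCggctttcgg
RPS27A (chr2:55232648-55232702, plus strand): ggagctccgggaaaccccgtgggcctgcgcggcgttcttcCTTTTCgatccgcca
RPL41 (chr12:56116593-56116647, plus strand): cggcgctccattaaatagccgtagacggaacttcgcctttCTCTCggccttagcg
RPSA (chr3:39406680-39406734, plus strand): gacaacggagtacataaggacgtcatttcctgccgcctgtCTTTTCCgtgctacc
RPS15 (chr19:1438356-1438410, plus strand): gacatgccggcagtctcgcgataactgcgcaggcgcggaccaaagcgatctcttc

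The run was 13 bases long in RPLP2, 7 in RPSA, 6 in RPL12 and RPS27A and 5 in RPL41. RPS27A had 3 annotated starts, and its run is that of the start shown. In the 300-base window around the start, searched on both strands, CCGGAA, the core recognised by ETS factors, was present at 51.9% of the ribosomal protein gene starts and 17.2% of all starts. The letters TATAAA were present at 6.49% and 11.5%, and GGGCGG at 54.5% and 44.95%. The 46 genes with a TOP start and the 16 without one had nearly equal median log2 ratios to the control, -0.24 and -0.25 in KO1 and -0.09 and -0.07 in KO2.

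All 77 genes were expressed, and they were among the most abundant mRNAs of DLD1 cells. Together they held 10.6% of the FPKM sum in the control, 9.14% in KO1 and 10.7% in KO2. Of the 100 genes with the highest FPKM, 40 were ribosomal protein genes in the control, 35 in KO1 and 39 in KO2. The median gene of the set stood at 313 FPKM in the control, 234 in KO1 and 267 in KO2. Their levels nonetheless ranged over 3 orders of size, and the plot of levels by library shows that most of this spread lay in a short tail of low values.

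**Figure D1:**
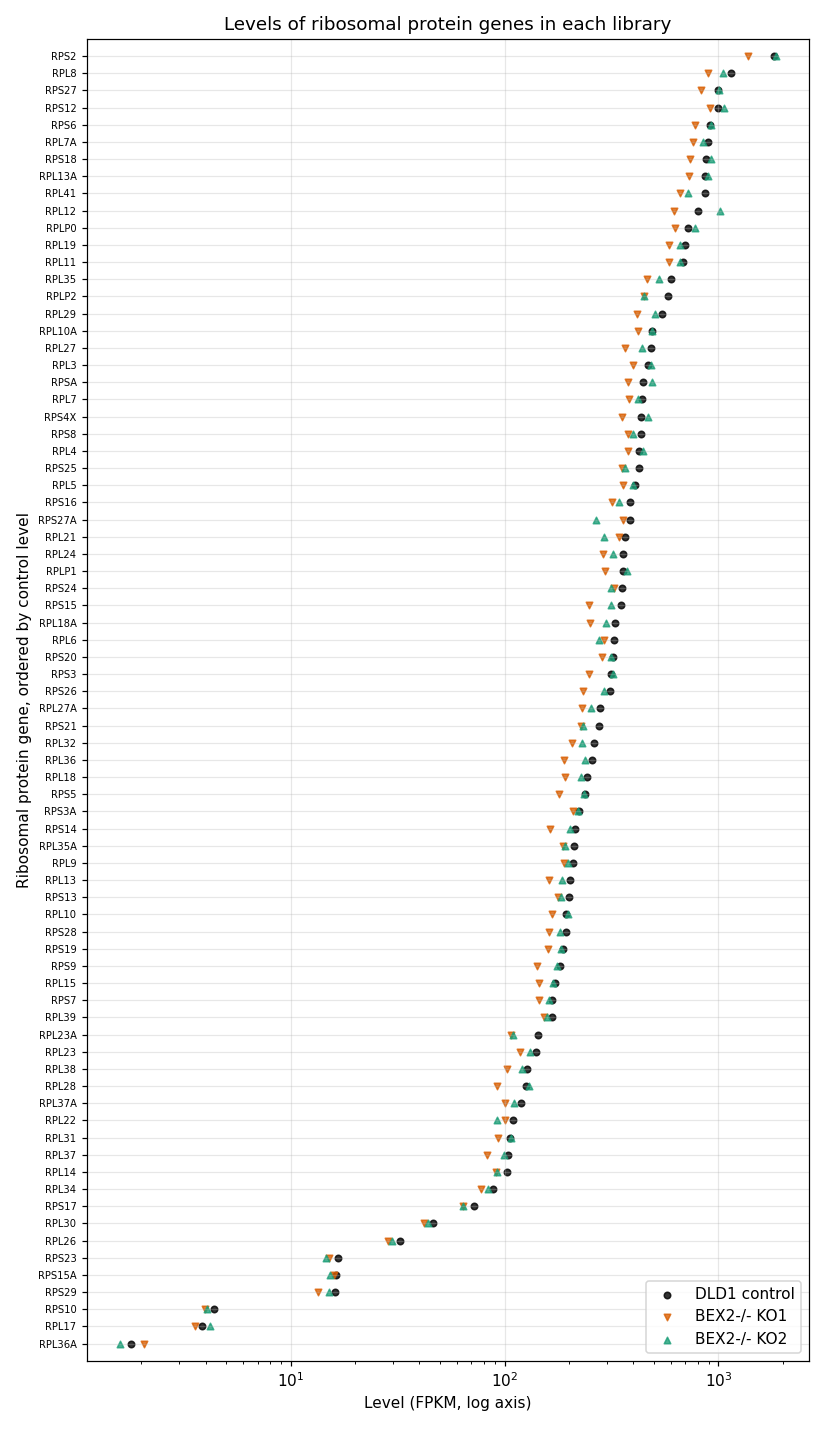
Level of 76 of the 77 ribosomal protein genes (FPKM, log axis) in the DLD1 control (circles), BEX2-/- KO1 (triangles pointing down) and KO2 (triangles pointing up), ordered by the control. Each symbol is 1 library; RPS2 was the highest gene in all 3, and RPL36A, RPL17 and RPS10 lay under 10 FPKM in all 3.

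RPS2, a small-subunit protein at the mRNA entry side, had the highest level: 1829 FPKM in the control, 1377 in KO1 and 1854 in KO2. RPL8, which lies near the peptidyl transferase centre, followed in the control with 1140 FPKM, and had 899 and 1055 FPKM in the knockout libraries. RPS12 had 994, 912 and 1063 FPKM, and RPS27 had 999, 826 and 1005. RPS12 was above RPL8 and RPS27 in both knockout libraries but below both genes in the control, so its rank against them cannot be settled. The 10 highest genes made up 35.6% of the set's summed FPKM in the control, 35.2% in KO1 and 37.3% in KO2.

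The lowest genes were RPL36A, RPL17, RPS10, RPS29 and RPS23. RPL36A, a large-subunit protein encoded on the X chromosome, had 1.80, 2.06 and 1.59 FPKM in the control, KO1 and KO2, from 338, 290 and 301 reads. RPL17, which lines the exit of the peptide tunnel, had 3.85, 3.55 and 4.21 FPKM, from 451, 312 and 496 reads. RPS10 had 4.39, 3.99 and 4.05 FPKM. These 3 genes each overlap an annotated readthrough gene that joins them to a neighbour, RPL36A-HNRNPH2, RPL17-C18orf32 and RPS10-NUDT3, all listed at 0 in every library. Of the 50-base windows of their main transcripts, 80.3%, 90.3% and 85.5% also occurred in other annotated genes. Reads in such windows cannot be assigned to a single gene, and how the deposited counting treated them was not tested.

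For 59 of the 77 genes the values were whole reads when FPKM was multiplied by the merged length of all annotated exons, and for the other 18 that length gave no whole reads. The merged length was 3109 bases in the median ribosomal protein gene, against 815 bases for the main transcript. For the 59 genes, the level per kilobase of the main transcript changed the order. RPS2 stayed first on both scales. RPL12, a protein of the stalk base, moved from place 10 to place 2, and RPS12 from place 3 to place 25, while RPL17 and RPL36A remained the last 2 genes. The levels of different genes therefore depended on the length used, but the plain FPKM ratio of a gene between libraries did not. The ratios below were taken after adding 1 FPKM, so for low genes they do depend on it.

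**Figure D2:**
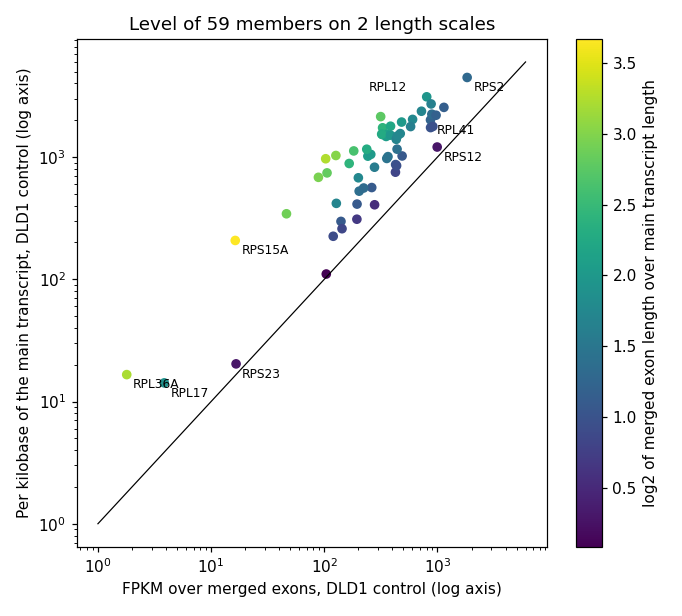
Level of the 59 genes with recovered reads in the DLD1 control on 2 length scales, FPKM over merged exons (x axis) and reads per kilobase of the main transcript at the same depth scaling (y axis), both log axes, coloured by the log2 ratio of the lengths. The line marks equal values; RPS12 lies close to it, while RPS15A and RPL36A lie far above it.

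In KO1, 76 of the 77 genes had a lower level than in the control, by a small amount each. On the log2(FPKM + 1) scale the median ratio was -0.24, the middle of the set lay between -0.34 and -0.17 (quartiles), and the full range was -0.50 to 0.13. Among 11675 genes with a mean of at least 1 FPKM, 43.8% were lower in KO1 and the median ratio was 0.04. The exception was RPL36A, for which the 95% exact binomial interval of the log2 ratio of reads, -0.04 to 0.42, included 0. Such intervals cover counting error only.

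In KO2, 58 of the 77 genes (75.3%) were below the control, where 51.6% of all genes were. The median ratio was -0.09, against -0.01 for all genes, with quartiles of -0.15 and -0.01. The count depended on the scaling: when each library was scaled to the same sum (TPM), 46 genes (59.7%) were below the control in KO2 and the median was -0.02, whereas in KO1 there were still 75 genes (97.4%) and a median of -0.18. This scaling also moved the median of all genes to 0.09 in KO1 and 0.05 in KO2. Median-ratio scaling divided each knockout library by the median of its gene ratios to the control. It left 57 genes below the control in KO2 (median -0.07) and 76 in KO1 (median -0.29). The shares of all genes below the control are for the deposited FPKM only, so they are no background for the counts under either scaling.

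Both knockout libraries were below the control for 57 genes (74.0%), beside 27.7% of all genes, and no ribosomal protein gene was above it in both. Under TPM scaling the count was 44 (57.1%), again with none of the set above the control in both. The share of all genes above the control in both was not counted, nor was the TPM share below it. Of the other 20 genes, 19 lay under the control in KO1 but over it in KO2, and RPL36A was the reverse. FPKM is relative to the total of each library, so less ribosomal protein mRNA and more of other RNA cannot be told apart. KO1 and KO2 share the single control library, so the direction of either is not independent of the other. The control differed from the mean of KO1 and KO2 by more than the SD between KO1 and KO2 for 51 of the 77 genes (66.2%), where 48.8% of all genes did so.

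The differences were small. No gene differed 2-fold in either knockout library, where 3.46% of all genes did so, and 0.325% of all genes differed that much with 1 sign in both. With a threshold of 20% below the control on the scale of FPKM + 1, 22 ribosomal protein genes (28.6%) passed in KO1, beside 9.17% of all genes, and 4 (5.19%) passed in KO2, beside 13.7% of all genes. In both knockout libraries together 2 genes passed, RPL23A and RPLP2, a share of 2.60% that equals the background of 2.60%. No gene was at least 25% higher in both, where 2.96% of all genes were.

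Most abundant genes were below the control in each knockout library. Of 287 genes with a mean of at least 100 FPKM, the ribosomal protein genes included, 78.0% were below the control in KO1 and 72.8% in KO2, and without the ribosomal protein genes these shares were 71.6% and 73.0%. All 65 ribosomal protein genes of that level were below the control in KO1, and 47 of them (72.3%) in KO2, a share close to the background. By at least 20%, 22 of the 65 (33.8%) were lower in KO1, beside 20.6% of abundant genes, or 16.7% without the ribosomal protein genes. The median ratios of these 65 genes were -0.25 for KO1 and -0.08 for KO2, while the 222 other abundant genes had medians of -0.11 and -0.12.

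The subunits did not separate. The 46 large-subunit genes had medians of -0.24 and -0.09 for KO1 and KO2, and the 31 small-subunit genes -0.25 and -0.08. In KO1, 45 of 46 and 31 of 31 were below the control, and in KO2, 35 of 46 and 23 of 31. With KO1 and KO2 combined per gene, the difference of the medians was -0.0056. It was -0.0043 without KO1 and changed sign when KO2 was left out (0.0091).

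RPL23A (ENSG00000198242), a protein at the exit of the peptide tunnel that binds the signal recognition particle, had the lowest mean of both log2 ratios, although other genes were lower in each single knockout library. It had 143 FPKM in the control, 107 in KO1 and 110 in KO2, a mean of 108 ± 1.95 in the knockout libraries (SD, n = 2). Its log2 ratios were -0.42 and -0.39. KO1 and KO2 were close to each other and both under the control, although 27.6% of the windows of RPL23A also occur in other genes, 30 of these 35 genes being annotated as pseudogenes.

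RPLP2 (ENSG00000177600) forms, with RPLP0 and RPLP1, the acidic stalk that recruits translation factors. It had 579 FPKM in the control, 448 in KO1 and 451 in KO2 (450 ± 1.75, SD, n = 2). The log2 ratios were -0.37 and -0.36, from 53706, 31204 and 42067 reads. The other stalk genes differed from it: RPLP0 had 722, 626 and 781 FPKM, and RPLP1 had 356, 295 and 376. All 3 stalk genes were below the control in KO1, and in KO2 RPLP2 was below it while RPLP0 and RPLP1 were above it.

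RPL41, which encodes a very short basic peptide of the large subunit, had 868, 662 and 720 FPKM in the control, KO1 and KO2. RPS15, a protein near the decoding site, had 352, 249 and 316 FPKM, and its ratio in KO1, -0.50, was the lowest of the set in that library. Both were under the control in both knockout libraries, and the log2 ratio of KO2 to KO1 was 0.12 for RPL41 and 0.34 for RPS15.

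RPS27A (ENSG00000143947), which is made as a fusion with ubiquitin, had the lowest ratio of the set in KO2. It had 384 FPKM in the control, 358 in KO1 and 267 in KO2. Its log2 ratio was -0.10 in KO1 and -0.53 in KO2. RPL21 was similar in direction, with 365, 342 and 291 FPKM. For both genes KO1 lay nearer to the control than KO2, the opposite of most of the set.

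At the other end of the genes with the same direction in both knockout libraries were RPS3A, RPS15A, RPL39, RPS20 and RPS10, with mean log2 ratios between -0.10 and -0.06. RPS3A, a small-subunit protein, had 223, 209 and 219 FPKM. RPL39, a small protein in the wall of the peptide tunnel, had 166, 154 and 157 FPKM. In these genes the control was the highest library by a narrow margin.

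KO1 and KO2 also differed from each other. KO2 was above KO1 for 69 of the 77 genes, where 42.2% of all genes were, with a median log2 ratio of KO2 to KO1 of 0.17, against -0.05 for all genes. The largest difference was in RPL12 (ENSG00000197958), with 803 FPKM in the control, 622 in KO1 and 1013 in KO2. Its ratio was -0.37 in KO1 and 0.33 in KO2, the only gene at least 25% above the control in either knockout library. Of the windows of RPL12, 56.5% occur in other genes, most often in NBEAL1.

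RPL28 and RPS2 followed. RPL28 had 127, 91.9 and 129 FPKM, and only 3.99% of its windows were shared with other genes. In RPL28 as in RPS2, KO2 lay next to the control and KO1 stood apart. A restriction to the 31 genes with under 25% of windows shared was added after the data were seen. Their medians were -0.27 in KO1 and -0.11 in KO2, with 31 and 25 of them below the control. Of all genes 43.8% and 51.6% were below it, and 71.6% and 73.0% of genes of at least 100 FPKM outside the set.

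Further members with known roles outside the ribosome or known links to disease were read as a group. RPL5 and RPL11 join the 5S ribosomal RNA and bind MDM2 when ribosome assembly is disturbed. RPL5 had 406, 356 and 398 FPKM, and RPL11 had 682, 588 and 660. RPS19, which is mutated in Diamond-Blackfan anaemia, had 188, 159 and 184 FPKM. In these 3 genes KO2 was close to the control and KO1 lower, as in most of the set. RPL22, which is recurrently mutated in colorectal cancers with mismatch repair defects, had 110, 101 and 92.6 FPKM and was instead lowest in KO2. RPSA, also known as the laminin receptor precursor, had 443, 377 and 491 FPKM, with the control between KO1 and KO2.

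The 4 X-linked genes did not move together. RPL10 had 195, 167 and 199 FPKM, and RPS4X had 435, 355 and 466. In both the control lay between KO1 and KO2. RPL39 was lower in both knockout libraries, and RPL36A was described above.

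The ratios in KO1 followed the base composition of the transcripts. Across the 77 genes, Spearman's rho between the GC content of the main transcript (42.1% to 63.6%) and the log2 ratio was -0.61 in KO1 and -0.01 in KO2. The points share their 3 libraries, and the value is a description. The main transcript here was the shortest of equally ranked transcripts, a choice made after the values with the longest had been seen; with the longest, rho was -0.57 in KO1 and -0.01 in KO2. Over 9973 other protein-coding genes rho was -0.29 in KO1 and -0.06 in KO2. The median ratio in KO1 was -0.15 for the 14 genes under 45% GC and -0.37 for the 18 genes of 55% or more. Other genes in these ranges had medians of 0.12 and -0.04, so at each end the ribosomal protein genes lay lower by a similar amount. Transcript length was also examined. Over the other protein-coding genes, rho between main transcript length and the log2 ratio was 0.28 in KO1 and 0.31 in KO2. Across the 77 genes it was -0.04 and 0.20. Shorter transcripts among the other genes thus tended to have lower ratios in both knockout libraries. The median main transcript was 815 bases in the set and 2892 in other genes. Whether base composition or transcript length had a part in the ratios was not tested.

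Genes on chromosome 19, which carries 12 of the set, had median ratios of -0.35 in KO1 and -0.10 in KO2, against -0.06 and -0.05 for the 735 other genes there. The 3 genes on chromosome 16 (-0.34) and the 3 on chromosome 5 (-0.32) had similar medians in KO1.

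Related genes were examined from lists. Of 10 ribosomal paralogs and fusion genes, 7 passed 1 FPKM, and 6 of these were below the control in both knockout libraries, beside 27.7% of all genes, with median ratios of -0.13 and -0.17, or -0.07 and -0.09 under TPM scaling. RPL26L1, a paralog of RPL26, had 42.0, 31.2 and 29.96 FPKM, and was the only gene of the list at least 20% lower in both knockout libraries. FAU, the precursor of the small-subunit protein RPS30, had 122, 99.4 and 118 FPKM, with KO1 lowest as in most ribosomal protein genes. RPL36AL had 284, 259 and 253 FPKM, RPL22L1 had 91.2, 90.4 and 87.4, RPL7L1 had 26.7, 25.4 and 23.5, and RPS27L had 2.86, 3.21 and 2.26. RPL3L was at or under 0.0993 FPKM, and RPL39L and RPL10L were listed at 0.

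Translation factors and other RNAs of the TOP class, GAS5 and SNHG1 among them, were mostly below the control in KO1. Of 18 listed genes 17 passed 1 FPKM, with 15 below the control in KO1 (median -0.13) and 8 in KO2 (median 0.03), or 13 and 7 under TPM scaling. Of all genes 43.8% and 51.6% were below the control without TPM scaling, so the count of 8 in KO2 was near the background. PABPC1, the poly(A)-binding protein, had 266, 252 and 326 FPKM, and TPT1 had 126, 140 and 128. RACK1, a scaffold bound to the small subunit, had 304, 248 and 277 FPKM, and EIF3F had 29.8, 26.5 and 25.9. EEF1G, an elongation factor subunit that every cell uses, was listed at 0 in all libraries, so a 0 in this table may be a failed estimate.

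Of the listed ribosome assembly and RNA polymerase I genes, 17 of 25 were below the control in both knockout libraries, beside 27.7% of all genes. All passed 1 FPKM, with 24 below the control in KO1 (median -0.16) and 17 in KO2 (median -0.14), beside 43.8% and 51.6% of all genes. Under TPM scaling these counts were 22 in KO1 and 16 in KO2, for which the share of all genes was not counted. FBL, the methyltransferase fibrillarin, had 142, 103 and 112 FPKM and was the only gene of the list at least 20% lower in both. UBTF, which activates RNA polymerase I, had 30.7, 27.3 and 21.04 FPKM. The polymerase subunits POLR1A and POLR1B were at the other end, with 8.88, 8.61 and 10.8 FPKM and 8.40, 8.93 and 8.95 FPKM.

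The mitochondrial ribosomal proteins, which are encoded by other genes and serve the organelle's own ribosome, were lower in KO2 than in KO1 in the median. Of 77 that passed 1 FPKM, 48 were below the control in KO1 (median -0.06) and 72 in KO2 (median -0.23), where 43.8% and 51.6% of all genes were. Under TPM scaling, which raised the median of all genes to 0.09 and 0.05, these counts were 39 (median -0.0074) and 65 (median -0.16). The share of all genes below the control under TPM scaling was not counted. By at least 20%, 3 were lower in KO1 and 16 in KO2, beside 9.17% and 13.7% of all genes. At least 25% higher were 3 in KO1 and 0 in KO2. In KO1 and KO2, 87.7% and 86.3% of genes outside the cytosolic set lay at or below a log2 ratio of 0.32, near 25% higher. MRPL11 had 42.9, 31.97 and 28.8 FPKM, and MRPS34 had 184, 147 and 123. MRPL53 had 1.61, 2.51 and 1.92 FPKM, and MRPL12 had 6.70, 8.85 and 7.09. Of 5 proliferation genes, 2 were below the control in KO1 and 5 in KO2, with medians of 0.01 and -0.40, and the part of growth rate in the ratios was not tested.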

How the data were processed

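Libraries of DLD1 control cells (n = 1) and BEX2-/- DLD1 cells (n = 2, KO1 and KO2) were made by the authors with the Illumina TruSeq RNA kit. The authors deposited FPKM values per Ensembl gene, that is, fragments scaled to exon length and library depth. The submitters' processing notes name Trim Galore 0.3.7, STAR 2.5, Cufflinks 2.2.1, DESeq 1.22.1 and hg19, without roles. Symbols, positions and lengths came from GENCODE 29 (GRCh38), in which 56996 of 60504 identifiers were found.

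Ratios were taken as log2(FPKM + 1), which understates changes of low genes, for genes whose control value and mean of KO1 and KO2 averaged 1 FPKM or more. The smaller threshold was 1.25-fold, that is, 20% lower or 25% higher. Reads were recovered as FPKM times merged exon length times the depth that made low values of single-transcript genes whole within 0.02 (98.7% to 98.8% of them). For 18 of the 77 genes the annotated length gave no whole reads, and none are given. Scripts were tested on simulated data. The main transcript was the best ranked by APPRIS, CCDS and support level, and among ties the shortest. The longest had been used first, and the rule was changed after those values were seen, because it picked unusually long forms of these short mRNAs. It differs for 27 of the 77 genes.

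No test was made, since the control had no replicate and the spread would rest on KO1 and KO2 alone. The members and lists were chosen with earlier results of these data known. Named were the 5 highest and lowest genes by level, the 5 with the largest and smallest mean ratio among genes with 1 direction, the 3 with the largest difference between KO1 and KO2, X-linked and paralogous genes, a few genes with known roles, and the 2 highest and lowest of each related list. RPL21, the genes of the start-site examples, and the cell type markers and proliferation genes named were chosen after their values were seen or as markers. Values of some single genes that the rule named are not reported here. Python 3.11.15, numpy 2.4.6, pandas 2.3.3 and scipy 1.17.1 were used.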

Additional observations from a re-analysis of the deposited data

How the results depend on the processing

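The alternatives were a pseudocount of 0.1 FPKM, median-ratio scaling, TPM scaling, no filter, means of at least 5 or 100 FPKM, protein-coding genes only and the omission of KO1 or KO2. Settings added after seeing the data were restriction to genes with few shared windows and the choice of main transcript. Of 73 recomputed values 66 stayed within the spread between KO1 and KO2 or within 1.5 times the count. Many of these could not move, so the count does not measure stability. All 77 genes passed the filter and were protein-coding, and a share of the FPKM sum does not depend on pseudocount or scaling. The median of KO1 or KO2 does not use the other knockout library. Leaving out KO1 or KO2 also keeps the share within their spread by construction. The number of genes at least 20% lower in both knockout libraries went from 2 to 0 under TPM scaling, and ranged from 4 to 22 when only KO1 or KO2 was used; the number at least 25% higher ranged from 0 to 1. A single library has to meet fewer criteria. The median difference between large- and small-subunit genes, -0.0056, was -0.029 at a mean of at least 100 FPKM, -0.0043 without KO1 and 0.0091 without KO2, and the cause was not tested. The share of the FPKM sum, 0.664 percentage points lower in the mean of KO1 and KO2, ranged from -1.46 to 0.129 with KO1 or KO2 alone.

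The choice of main transcript, changed after the data were seen, moved Spearman's rho with GC content in KO1 from -0.57 (longest) to -0.61 (shortest), and the number of genes with under 25% of windows shared from 35 to 31. With the longest, the medians of those 35 genes were -0.27 in KO1 and -0.11 in KO2. Of them 35 and 30 were below the control, beside 43.8% and 51.6% of all genes. RPS12 stood at place 23 per main transcript with the longest, rather than 25.

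No paired analysis was possible because the control was a single library and carried no number shared with KO1 or KO2. Depth did not limit the abundant genes, but RPL36A and RPL17 rested on 290 to 496 reads. The single control and the 2 knockout libraries set the precision of every ratio.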
